A study of Mus musculus with 12 samples.

Results

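The genes described here form the machinery that turns an action potential into calcium release in skeletal muscle, together with a pair of peptides that restrain calcium reuptake. They are Cacna1s, Cacnb1, Ryr1, Ryr3, Jph1, Jph2, Trdn, Asph, Sln and Pln, and they were taken as all array probes that carry one of these 10 gene names in the deposited scanner files. They are 10 of 30038 gene names in the files, and the rule gave 26 of 41174 gene probes. The exercised group holds 6 mice after 4 weeks of training on a motorised treadmill, with quadriceps muscle collected 3 h after the last session. The sedentary group holds 6 mice that did not train. All 12 animals were 13-week-old male C57BL/6J mice, 1 mouse per one-colour array, and no genotype or drug differs between the groups. The effect of the last session and the effect of 4 weeks of training cannot be told apart in this design.

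In a skeletal muscle fibre the dihydropyridine receptor senses voltage in the transverse tubule and opens the ryanodine receptor of the sarcoplasmic reticulum by direct mechanical coupling. Junctophilins hold the 2 membranes together at the triad, and triadin and junctin tie the release channel to the calcium store inside the reticulum. The SERCA pumps return calcium to the reticulum, and the small membrane peptides sarcolipin and phospholamban inhibit them.

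Of the 26 probes, 6 span more than 60 bases of genome in the array annotation and so cross an intron, which means that they match spliced transcript. They are printed because they include the brightest probe of the release channel Ryr1, and all letters are in lower case because no base is singled out. The voltage sensor Cacna1s is described below mainly by another probe, and the printed Ryr3 probe was not tested. Positions come from the array annotation (build mm9) and were not checked against a genome.
Ryr1 probe A_51_P416074 (mm9 chr7:29789818-29790524, minus strand): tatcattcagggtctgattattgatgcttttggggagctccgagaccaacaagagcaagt
Ryr1 probe A_52_P391110 (mm9 chr7:29788789-29789487, minus strand): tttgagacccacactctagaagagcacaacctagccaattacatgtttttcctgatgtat
Ryr3 probe A_52_P521605 (mm9 chr2:112487241-112488492, minus strand): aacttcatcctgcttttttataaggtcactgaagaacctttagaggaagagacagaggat
Cacna1s probe A_52_P598219 (mm9 chr1:137995266-137997234, plus strand): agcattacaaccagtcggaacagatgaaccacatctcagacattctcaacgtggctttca
Cacnb1 probe A_51_P478138 (mm9 chr11:97866579-97867011, minus strand): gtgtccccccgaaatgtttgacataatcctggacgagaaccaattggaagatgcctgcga
Trdn probe A_52_P202322 (mm9 chr10:33184400-33187979, plus strand): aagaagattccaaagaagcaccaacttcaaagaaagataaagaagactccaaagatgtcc

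A level is given as log2 of the spot signal minus the 75th percentile of its array, so that 0 is the 75th percentile itself. Levels of different probes are not on a common scale, since probes bind with different strength, and only the same probe is compared between mice. Testing was limited to probes whose signal stood well above background in 6 or more of the 12 mice, which kept 22916 probes in all and 22 of the 26 described here, with at least 1 probe for each of the 10 genes. A probe was called changed at an adjusted p below 0.05 in limma, with Benjamini-Hochberg adjustment over all 22916 probes.

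None of the 10 genes passed this test in exercised against sedentary muscle. Of the 22 tested probes 0 were called in limma, whereas 3.32% of all tested probes were called, 1.81% higher and 1.51% lower. At an unadjusted p below 0.05 there was 1 probe of 22, against 15.7% of all tested probes. For 0 of the 22 probes did the levels of the groups fail to overlap, against 2.89% of all tested probes. The differences ran from -0.28 to 0.41 on the log2 scale, with 7 probes above 0 and 15 below, and their median was -0.04 against -0.02 over all tested probes. The 95% interval of the difference lay within 1.5-fold in either direction for 19 of the 22 probes and within 2-fold for 21, so that a larger difference between the group means lies outside these intervals. Counted by the probe of each gene with the highest mean, it lay within 1.5-fold for 8 of 10. The 19 include probes near background, such as that of Pln, above it on 7 of 12 arrays. Nearness to background limits what such differences can show. A p that misses the threshold does not show that the groups were equal.

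**Figure D1:**
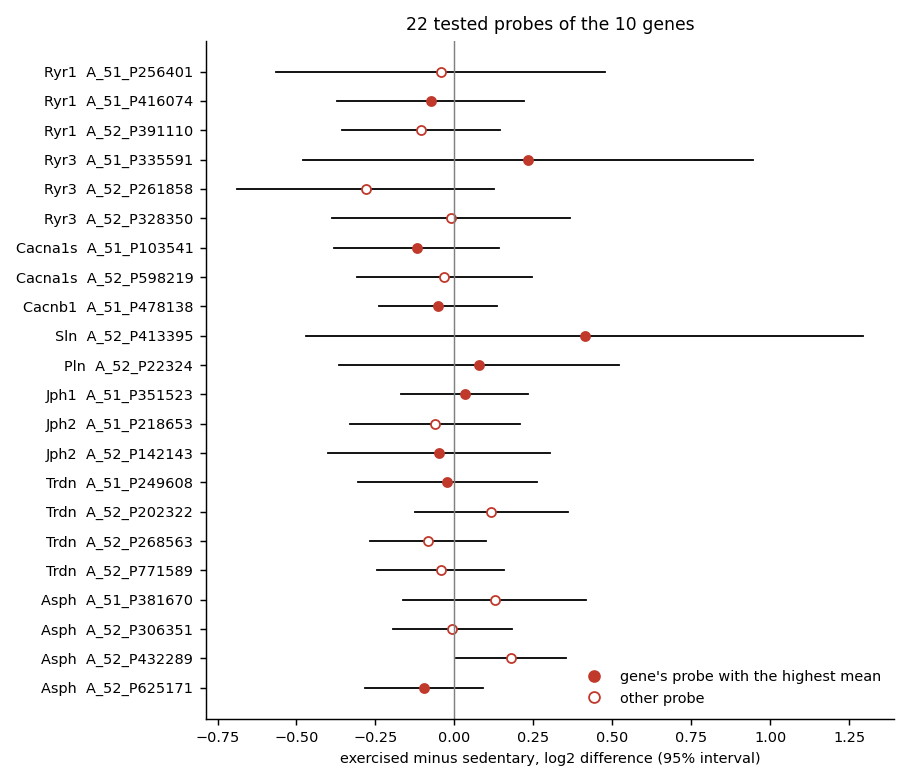
Exercised minus sedentary log2 difference (x axis) for each of the 22 tested probes (y axis), with limma's 95% interval as a line; filled points are each gene's probe with the highest mean level. The points lie between -0.28 and 0.41, and the interval of Sln is the widest.

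Cacna1s encodes the voltage-sensing, pore-forming subunit of the dihydropyridine receptor. Its brighter probe (A_51_P103541, mm9 chr1:138016020-138016079) lay between 8.48 and 9.21 with a median of 8.91 in exercised muscle, and between 8.77 and 9.27 with a median of 8.97 in sedentary muscle. The ranges overlapped over most of their length, with the lowest level in exercised mouse s2m4 and the highest in sedentary mouse s2m2. The difference was -0.12 (SE 0.12, 95% interval -0.38 to 0.14, adjusted p = 0.706 in limma), a ratio of 0.921. The intron-crossing probe printed above differed by -0.03 (SE 0.13), with medians of 0.50 and 0.52 in exercised and sedentary muscle.

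Cacnb1 encodes the beta subunit that carries the receptor to the triad. Its 1 probe ranged from 4.06 to 4.42 with a median of 4.33 in exercised muscle, against 4.18 to 4.54 with a median of 4.30 in sedentary muscle. The lowest array was exercised mouse s2m5 and the highest sedentary mouse s2m4, and the others interleaved. The difference was -0.05 (SE 0.09, 95% interval -0.24 to 0.14, adjusted p = 0.842 in limma).

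Ryr1 encodes the calcium release channel of skeletal muscle. Its brightest probe (A_51_P416074) ranged from 7.76 to 8.59 with a median of 8.24 in exercised muscle, against 7.99 to 8.59 with a median of 8.31 in sedentary muscle. The second intron-crossing probe (A_52_P391110) ranged from 7.72 to 8.26 in exercised and from 7.94 to 8.51 in sedentary muscle. For both probes exercised mouse s2m4 was the lowest of the 12. The differences were -0.08 (SE 0.14) and -0.11 (SE 0.12), and the interval of the first was -0.37 to 0.22 (adjusted p = 0.855 in limma). The remaining Ryr1 probe (A_51_P256401), designed on a separate cDNA clone, differed by -0.04 (SE 0.24). Over the 12 deviations from group means it ran at r = -0.21 and r = -0.08 with the other Ryr1 probes, which ran together at r = 0.92.

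Ryr3 encodes a second release channel, which in mouse limb muscle is known mainly from the perinatal period. Its probe with the highest mean (A_51_P335591, mm9 chr2:112569008-112569067) ranged from -3.87 to -2.42 with a median of -3.08 in exercised muscle, against -4.11 to -2.41 with a median of -3.31 in sedentary muscle. The difference was 0.23 (SE 0.33, 95% interval -0.48 to 0.94, adjusted p = 0.806 in limma). The level split by slide more than by group. The 4 arrays of slide 1 lay from -4.11 to -3.74, and the 8 arrays of the other slides lay from -3.12 to -2.41. Slide 1 holds 1 exercised and 3 sedentary arrays, and with slide as a block the difference was -0.18 (SE 0.16). Probes A_52_P261858 and A_52_P328350 were above background on 3 and 5 exercised arrays and on 4 and 3 sedentary arrays, and differed by -0.28 (SE 0.19) and -0.01 (SE 0.17). The other Ryr3 probes (A_52_P109916 and the printed A_52_P521605) were well above background on 0 exercised arrays and on 1 sedentary array each, and were not tested. Those single arrays were s2m5 at -3.67 and s1m5 at -2.73, while the same probes lay at -5.98 or lower on every other array.

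Jph1 and Jph2 encode junctophilins, which span the gap between the transverse tubule and the reticulum. Jph1 (A_51_P351523) ranged from 1.03 to 1.37 with a median of 1.08 in exercised muscle, against 0.84 to 1.32 with a median of 1.11 in sedentary muscle, and the sedentary range enclosed all but 1 of the exercised mice. The difference was 0.03 (SE 0.09, 95% interval -0.17 to 0.23, adjusted p = 0.913 in limma). The brighter Jph2 probe (A_52_P142143) ranged from 6.29 to 7.01 with a median of 6.68 in exercised muscle, against 6.30 to 7.04 with a median of 6.77 in sedentary muscle, almost the same span. It differed by -0.05 (SE 0.16, adjusted p = 0.925 in limma), and the other Jph2 probe (A_51_P218653) by -0.06 (SE 0.12).

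Trdn encodes triadin, which anchors calsequestrin near the release channel. Its brightest probe (A_51_P249608, mm9 chr10:32919981-32920040) ranged from 7.62 to 8.29 with a median of 8.02 in exercised muscle, against 7.80 to 8.38 with a median of 7.99 in sedentary muscle. The difference was -0.02 (SE 0.13, 95% interval -0.31 to 0.26, adjusted p = 0.962 in limma). This probe was designed on another transcript record than the other Trdn probes, and which triadin transcripts each probe reads was not established here. The intron-crossing probe differed by 0.12 (SE 0.11) and A_52_P771589 by -0.04 (SE 0.09). Probe A_52_P268563 differed by -0.08 (SE 0.08) over 5 exercised and 6 sedentary mice, because its spot on exercised mouse s2m1 was marked as an outlier by the extraction software and was left out.

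Asph gives rise to junctin, junctate and aspartyl beta-hydroxylase from a single gene, and which of these each probe reads was not established here. The brightest probe (A_52_P625171, mm9 chr4:9563054-9563113) ranged from 5.23 to 5.66 with a median of 5.44 in exercised muscle, against 5.39 to 5.74 with a median of 5.54 in sedentary muscle. It differed by -0.10 (SE 0.09, 95% interval -0.28 to 0.09, adjusted p = 0.66 in limma). Probe A_52_P432289 gave the smallest unadjusted p among the 22, at -2.07 to -1.84 in exercised and -2.36 to -1.90 in sedentary muscle. Its difference of 0.18 (SE 0.08, 95% interval 0.01 to 0.35) had an unadjusted p of 0.0434 and an adjusted p of 0.298 in limma, and the groups overlapped. Probes A_51_P381670 and A_52_P306351 differed by 0.13 (SE 0.13) and -0.01 (SE 0.09) and ran against each other over the 12 mice (r = -0.61). Probe A_52_P172080 was above background on 1 exercised and 0 sedentary arrays and was not tested.

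**Figure D2:**
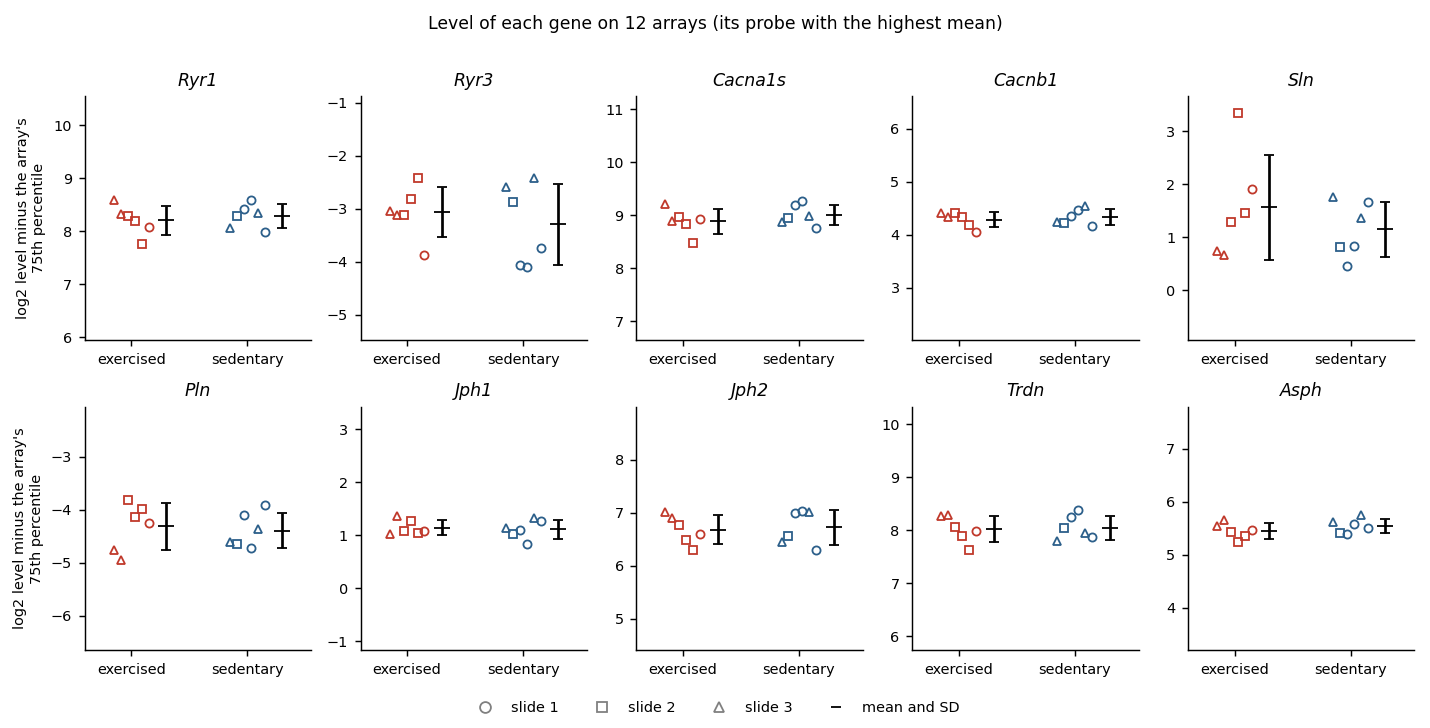
Level of each of the 10 genes (y axis, log2 signal minus the array's 75th percentile, every panel spanning the same number of log2 units) in 6 exercised and 6 sedentary mice, by the probe with the highest mean. Symbols mark the slide and the bar gives mean and SD; the groups overlap in every panel, and 1 exercised mouse stands high for Sln.

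Sln encodes sarcolipin, an inhibitor of SERCA. Its tested probe (A_52_P413395, mm9 chr9:53701574-53701633) was at 0.73, 0.67, 1.28, 3.34, 1.45 and 1.90 in the 6 exercised mice. In the 6 sedentary mice it was at 1.76, 0.81, 0.47, 0.84, 1.37 and 1.66. The groups overlapped, with exercised mice s2m3, at 3.34, and s2m5, at 1.90, above the sedentary range and sedentary mouse s1m6, at 0.47, below the exercised range. The difference was 0.41 (SE 0.41, 95% interval -0.47 to 1.29, adjusted p = 0.70 in limma), a ratio of 1.33 with an interval of 0.722 to 2.45. Without exercised mouse s2m3 it was 0.06. This mouse also had the highest summed level of the slow-fibre list in the study, 846 against 336 to 640 in the other exercised mice and 441 to 699 in sedentary mice. Its summed cardiac (16.2), tendon (169) and nerve (24.1) lists were also the highest of the 12, and its endothelial list (21.8) was the lowest. In the cardiac list Myh6, named after its values were seen, had a mean level of 1.95 against 0.12 for the next gene. Myh6 thus weighs most in that sum. The part of all these lists in the Sln level was not tested. In these bulk samples more cells of a type and more RNA per cell cannot be told apart. The other Sln probe (A_51_P297498), designed on a cDNA clone, was well above background on 0 of the 12 arrays.

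Pln encodes phospholamban, the SERCA inhibitor of heart and slow muscle. Its 1 probe (A_52_P22324, mm9 chr10:53064944-53065003) was close to background, above it on 4 exercised and 3 sedentary arrays. It ranged from -4.94 to -3.82 with a median of -4.20 in exercised muscle, against -4.73 to -3.92 with a median of -4.49 in sedentary muscle. The 2 exercised mice of slide 3 were the lowest of the 12. The difference was 0.08 (SE 0.20, 95% interval -0.36 to 0.52, adjusted p = 0.904 in limma).

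The sign of a difference often changed with the slide on which the arrays lay. Slide 1 holds 1 exercised and 3 sedentary mice, slide 2 holds 3 and 1, and slide 3 holds 2 and 2. A single mouse thus makes up 1 side of the difference on slides 1 and 2. With so few mice, slide and mouse-to-mouse spread cannot be told apart here. For Sln the exercised minus sedentary difference was 0.92 on slide 1, 1.21 on slide 2 and -0.86 on slide 3. For Pln it was close to 0 on slide 1, 0.66 on slide 2 and -0.36 on slide 3. By the probe of each gene with the highest mean, Ryr1, Cacna1s, Jph2 and Trdn were below 0 on slides 1 and 2 and above 0 on slide 3, where Trdn (A_51_P249608) reached 0.41. Their other probes did not all follow, since Trdn A_52_P202322 was at 0.03 on slide 1 and Ryr1 A_51_P256401 at 0.19 on slide 1 and -0.08 on slide 3. Asph (A_52_P625171) was below 0 on all 3 slides. Over the 22 probes the median difference was -0.13 on slide 1, -0.02 on slide 2 and 0.09 on slide 3.

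**Figure D3:**
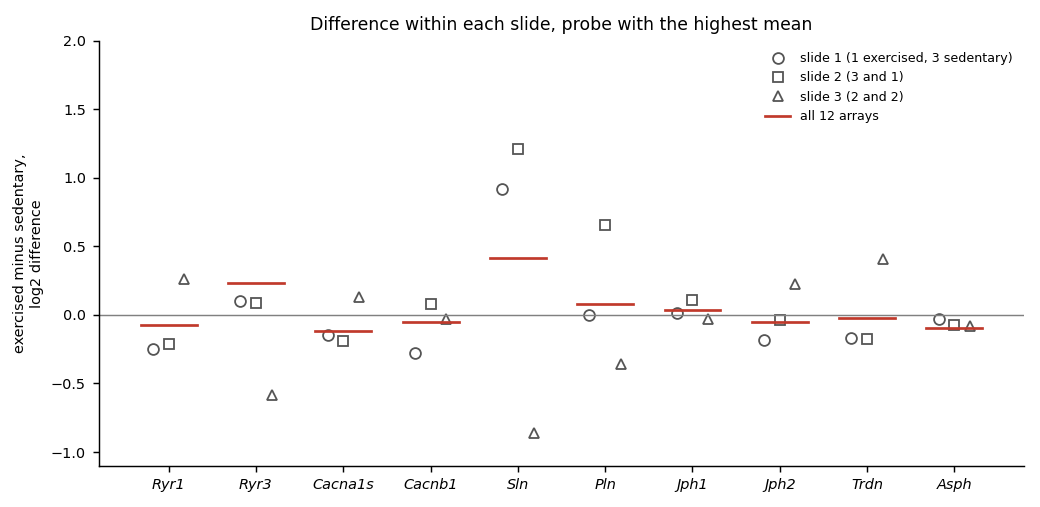
Exercised minus sedentary log2 difference (y axis) within each of the 3 slides for each gene's probe with the highest mean (x axis); red lines give the difference over all 12 arrays. Sln spans -0.86 to 1.21 between slides, while Asph stays close to 0. Slide 1 has 1 exercised mouse and slide 2 has 1 sedentary mouse.

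By their probes with the highest means, Ryr1, Cacna1s, Trdn and Jph2 varied together from mouse to mouse. Over 12 deviations from group means, their 6 pairs had Pearson r between 0.84 and 0.95, the highest for Ryr1 with Cacna1s. The other 39 pairs of the 10 genes had r from -0.61 to 0.77 with a median of -0.14. The remaining 38 pairs of tested probes between these 4 genes ran from -0.58 to 0.94 with a median of 0.60, and without Ryr1 A_51_P256401 the lowest of the other 30 was 0.09. These correlations are descriptions over the same 12 arrays, which share each array's scaling. The 4 genes were low on the arrays with the highest 75th percentile of signal, exercised mouse s2m4 (230 units of intensity) and sedentary mouse s2m5 (237). Among exercised mice Ryr1 (A_51_P416074) mostly fell as the percentile rose, from 8.59 in s1m1 (179) to 7.76 in s2m4 (230). Jph2 (A_52_P142143) fell likewise from 7.01 to 6.29, with s2m3 out of order for both, and Cacna1s followed less closely. Among sedentary mice the order of the percentiles was not followed throughout. Sedentary mice s2m2 and s1m1 had nearly the same percentile (191 and 190), with Ryr1 at 8.59 and 8.05 and Trdn at 8.38 and 7.80. Sedentary mice s1m6 (167) and s1m5 (174), with the lowest percentiles, had Cacna1s at 9.19 and 8.95, on either side of the sedentary median. The summed level of the skeletal fibre marker list is in units of the same 75th percentile, and so is not a separate reading from it. This sum was low and high on some of the same arrays as the 4 genes, though not in the same order throughout. It was lowest in exercised mouse s2m4 (10228), lowest among sedentary mice in s2m5 (11440), and highest in exercised mouse s1m1 (12490) and sedentary mice s1m6 (13940) and s2m2 (13543). Exercised mouse s2m1 had a lower sum (10963) than s2m5 (11831), with Ryr1 (A_51_P416074) at 8.28 and 8.08. The part of the list and of the percentile in the levels of the 4 genes was not tested. With quantile scaling the 6 pairs had r between 0.74 and 0.87, and the within-group SD of Ryr1 (A_51_P416074) was 0.17 in place of 0.25 and that of Trdn (A_51_P249608) 0.13 in place of 0.24. The median within-group SD of the 22 probes was 0.23, against 0.19 over all tested probes.

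**Figure D4:**
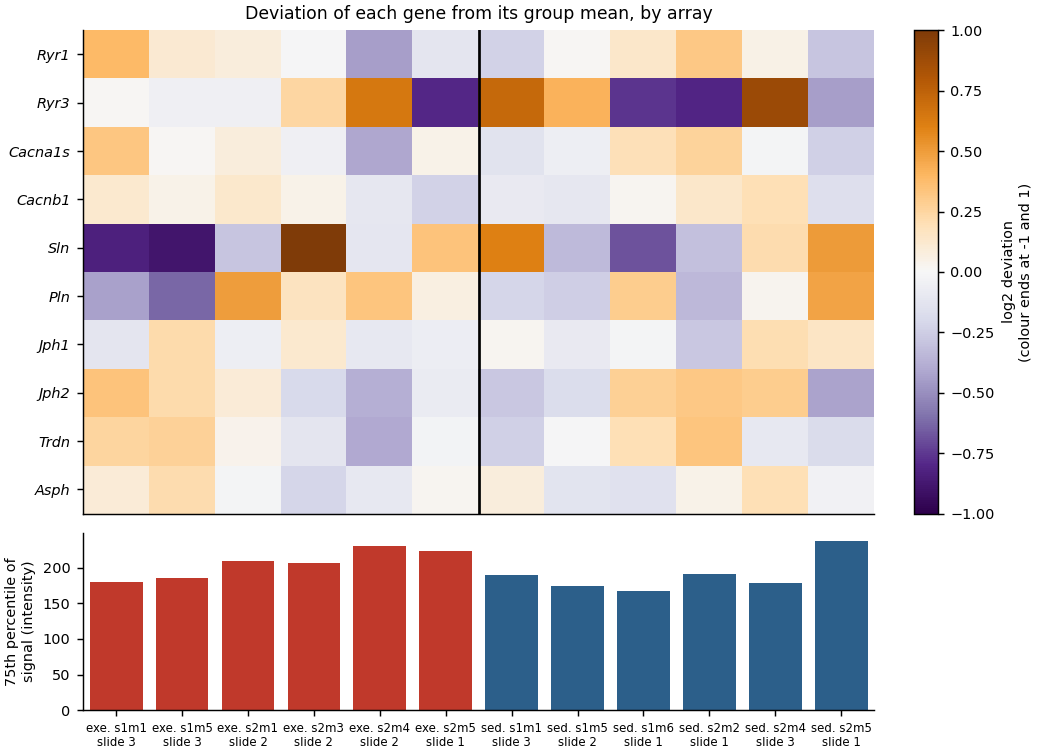
Log2 deviation of each gene from its group mean (colour) by mouse, exercised left of the line and sedentary right of it, above the 75th percentile of signal of the same arrays (bars, intensity). Ryr1, Cacna1s, Jph2 and Trdn share a pattern by these probes and are low on the arrays at 230 and 237. The skeletal fibre list, scaled by the same percentile, is also lowest in its group there.

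RefSeq promoter windows of 300 bases were at hand for 5 of the 10 genes. Those of the co-varying genes Ryr1, Cacna1s and Jph2 are shown 5′ to 3′ on the gene's strand, on build GRCm38.p6, with capitals for the E-box CANNTG, the motif bound by MyoD-family factors, which reads the same on both strands. It occurs 0 times in the Ryr1 window, 2 times in that of Cacna1s and 1 time in that of Jph2, and 72.3% of all 32851 windows of this length hold at least 1. The muscle CAT motif CATTCC, searched on both strands, occurs 1 time in the Cacna1s window and 0 times in the others (14.7% of all windows). These matches describe the letters of the windows only.
Ryr1 promoter (GRCm38.p6 chr7:29125102-29125401, minus strand): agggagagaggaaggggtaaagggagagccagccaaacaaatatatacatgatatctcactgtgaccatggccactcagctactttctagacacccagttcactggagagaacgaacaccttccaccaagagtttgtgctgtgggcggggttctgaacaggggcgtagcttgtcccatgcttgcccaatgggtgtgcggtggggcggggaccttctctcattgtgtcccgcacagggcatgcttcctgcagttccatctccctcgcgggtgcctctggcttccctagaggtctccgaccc
Cacna1s promoter (GRCm38.p6 chr1:136052561-136052860, plus strand): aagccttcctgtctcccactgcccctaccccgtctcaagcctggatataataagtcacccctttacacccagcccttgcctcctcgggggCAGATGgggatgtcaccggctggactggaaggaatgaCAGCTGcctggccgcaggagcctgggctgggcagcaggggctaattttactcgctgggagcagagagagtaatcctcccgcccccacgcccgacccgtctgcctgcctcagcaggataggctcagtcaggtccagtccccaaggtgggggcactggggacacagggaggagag
Jph2 promoter (GRCm38.p6 chr2:163397944-163398243, minus strand): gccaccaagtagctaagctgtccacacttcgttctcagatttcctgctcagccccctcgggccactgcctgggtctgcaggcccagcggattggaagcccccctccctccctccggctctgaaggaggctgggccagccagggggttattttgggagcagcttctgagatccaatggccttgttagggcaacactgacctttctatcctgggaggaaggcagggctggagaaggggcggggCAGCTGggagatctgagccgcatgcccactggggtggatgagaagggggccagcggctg

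The named genes with the deviations most like those of Sln over the 12 mice, among 13302 genes compared, were Ptpn12 (r = 0.89), Ezr (r = 0.89), Zcchc14 (r = 0.89), Itpr3 (r = 0.89) and Rasl11b (r = 0.88). All 5 had their highest level in exercised mouse s2m3, the mouse in which Sln was highest. For Pln they were Gsg1 (r = 0.94), Car9 (r = 0.90), Mtor (r = 0.89), A430033K04Rik (r = 0.88) and Tmem106c (r = 0.88). These are the highest of many correlations over few mice and carry no test.

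Among the other genes of calcium release and reuptake, 1 probe passed the test. The lists held 61 genes, of which 59 were found on the array and 52 tested with 83 probes, giving 0 higher and 1 lower in exercised muscle in limma, or 1.2% called against 3.32% of all tested probes. At an unadjusted p below 0.05 there were 18, or 21.7% against 15.7%. Levels did not overlap between the groups for 3, or 3.61% against 2.89%. The median difference was -0.04 against -0.02 over all tested probes. Mrln encodes myoregulin, a SERCA-inhibiting micropeptide of skeletal muscle, and stands in the files under its older name 2310015B20Rik (A_51_P199352, mm9 chr10:69682319-69682378). It was at 5.35, 5.45, 5.52, 5.19, 5.33 and 5.31 in exercised mice. In sedentary mice it was at 5.47, 5.64, 5.75, 5.98, 5.70 and 5.76. Only exercised mouse s2m1, at 5.52, lay above the lowest sedentary mouse. Mrln fell by 0.36 on the log2 scale (SE 0.09, 95% interval -0.55 to -0.17, adjusted p = 0.0418 in limma), a ratio of 0.779. With slide as a block the adjusted p was 0.137, and the call was kept in 2 of the 12 fits that leave out 1 array, those without exercised mouse s2m1 and without sedentary mouse s1m1, with adjusted p between 0.0231 and 0.0879. The difference was -0.53, -0.29 and -0.19 within slides 1, 2 and 3.

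The remaining SERCA genes did not pass, and those given here were picked after their values were seen. Atp2a1, the SERCA pump of fast fibres, differed by -0.26 (SE 0.10, adjusted p = 0.238 in limma) by its brighter probe. Atp2a2, the pump of slow fibres and heart, differed by 0.31 (SE 0.39), 0.32 (SE 0.38) and 0.43 (SE 0.18) by its 3 probes. Camk2b, a kinase subunit, differed by -0.20 (SE 0.08). By their brightest probes the other subunit genes Camk2a, Camk2d and Camk2g differed by 0.33 (SE 0.36), 0.05 (SE 0.08) and 0.002 (SE 0.09). In the list of calcium buffers 0 of 8 probes were called. Casq1 and Casq2, the calsequestrins of fast and slow or cardiac fibres, differed by -0.24 (SE 0.11) and 0.38 (SE 0.19). Among partners of the dihydropyridine receptor 0 of 7 probes were called, and Cacng6, a gamma subunit, and Stac3, an adaptor needed for coupling, differed by -0.21 (SE 0.11) and -0.17 (SE 0.12).

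Among other release channels and their modulators 0 of 25 probes were called. Itpr2, an inositol trisphosphate receptor, was at 2.52 to 2.67 in exercised against 2.28 to 2.48 in sedentary muscle without overlap, and differed by 0.21 (SE 0.06, adjusted p = 0.066 in limma). Calm2, a calmodulin gene, was at 5.94 to 6.15 in exercised against 6.18 to 6.35 in sedentary muscle, also without overlap. It differed by -0.18 (SE 0.06). Of the triad structure list 0 of 19 probes were called. Sypl2 (mitsugumin 29, a triad membrane protein) was at 2.66 to 2.95 in exercised against 2.97 to 3.12 in sedentary muscle without overlap, and differed by -0.26 (SE 0.06), with an adjusted p of 0.0503 in limma. Ank1, whose small muscle form links the reticulum to obscurin, differed by -0.18 (SE 0.10). Of the store-operated entry list 0 of 8 probes were called, and Orai1, the pore of store-operated entry, differed by -0.21 (SE 0.09).

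**Figure D5:**
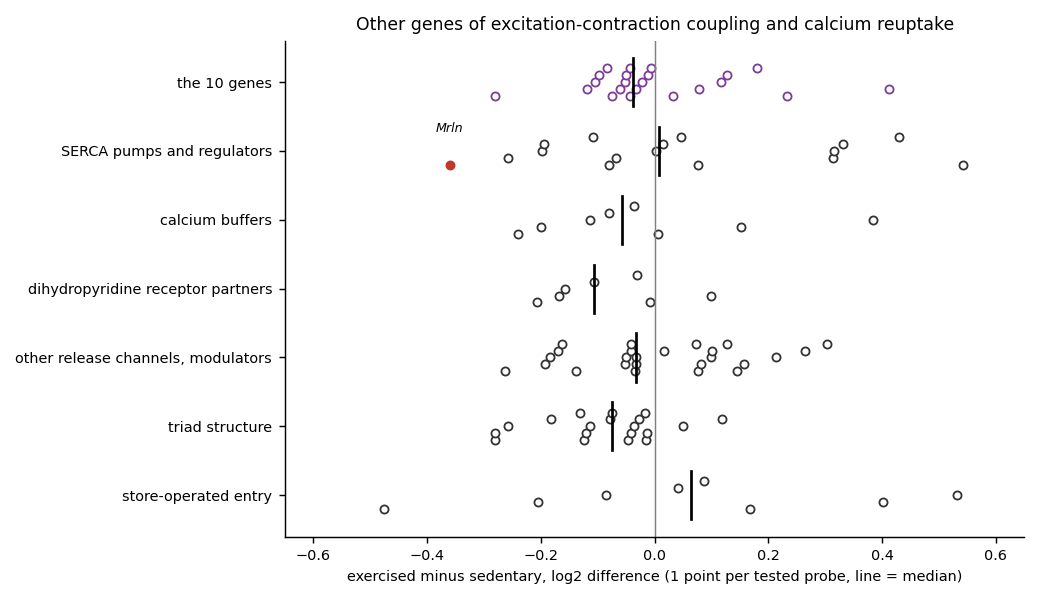
Exercised minus sedentary log2 difference (x axis) of every tested probe of the 10 genes and of 6 related lists (y axis), with the median of each list as a line; the filled point passed an adjusted p below 0.05. Mrln at -0.36 is the 1 filled point.

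The tissue showed the marks of fast skeletal muscle in every mouse. All 10 defining skeletal fibre genes were well above background on all 12 arrays, Myh4 and Tnnc2 among them, and the list summed to 10228 to 12490 in exercised and 11440 to 13940 in sedentary muscle, in units of each array's 75th percentile. Of the 14 tested probes of this list 0 were called and 12 lay below 0, with a median over the 14 of -0.14. An unadjusted p below 0.05 in limma was reached by 4 of them. The percentile that sets the scale was 179, 186, 210, 206, 230 and 224 in the exercised mice. In the sedentary mice it was 190, 174, 167, 191, 178 and 237. Its part in the differences of this list was not tested. The slow-fibre list, which includes Myl3 and Myh7, had 0 of 10 genes called and 15 of 16 probes above 0. In the cardiac list, with 0 genes called, Ryr2 was above background on 2 arrays and Myl7 on 1, and the brown adipocyte gene Elovl3 on 0. Genes called by their brightest probe were 3 of 8 smooth muscle genes, higher in exercised muscle (Cnn1, Myh11 and Mylk), 1 of 10 developing or denervated fibre genes, higher (Myog), and 2 of 8 endothelial genes, lower (Cldn5 and Kdr). Over all probes of the endothelial list, 1 was called higher and 2 lower. Of the brown and white adipocyte, tendon, nerve and macrophage lists 0 genes were called by that probe. The tendon list nevertheless had 11 of 11 probes above 0, a median of 0.91 and 10 with an unadjusted p below 0.05, and the nerve list had 9 of 10 above 0 and 6 with an unadjusted p below 0.05. Ucp1, the brown adipocyte uncoupling protein, differed by 4.35 (SE 1.59, adjusted p = 0.185 in limma) and was above background on 7 arrays; it is named after its values were seen. Summed levels ran from 66 to 169 in exercised and 29.1 to 86.4 in sedentary muscle for tendon, and from 243 to 877 and from 150 to 780 for white adipocytes. The part of these cells in the levels given above was not tested.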

How the data were processed

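RNA of quadriceps from 12 mice was hybridised to 12 one-colour (Cy3) Agilent arrays. Spot intensity on a linear scale was deposited by the authors. Per the file headers it was extracted with Agilent Feature Extraction 10.5.1.1, with background subtracted within each array, whereas the submitters' processing notes name version 9.1. Control and outlier-marked spots were left out, spots of a probe were averaged, and log2 levels were set against each array's 75th percentile. Probes well above background on at least 6 of 12 arrays were fitted in limma 3.58.1 (R 4.3.3) without a block. The 12 arrays limit the precision. Slide, read from the array barcode, divides the mice unevenly: slide 1 has 1 exercised mouse and 3 sedentary mice, slide 2 has 3 and 1, slide 3 has 2 and 2. The code was tested on simulated data.

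The genes and lists were chosen with earlier results of these data known. In each related list, genes with a called probe are named, otherwise the 2 with the smallest unadjusted p of their brightest probe; 1 gene that this rule names is not reported here. Likeness is Pearson r over 12 deviations from group means. Markers named are the 2 with the highest signal of the skeletal and slow-fibre lists, defining markers at background, and called genes. Alternatives were other scalings, background corrections, filters, probe rules, blocks, variance models and array weights, the deposited value table, single slides and leaving out each array. A normexp correction with background limited to each array's 99.9th percentile was added after seeing the data.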

Additional observations from a re-analysis of the deposited data

How the results depend on the processing

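No probe of the 10 genes was called under any of the 32 other settings. Of 673 values of these probes under them, 29 moved by over 1 within-group SD and 92 had the opposite sign, none of them called. The count of all called probes, 760 as reported, was 0 with normexp background correction, 394 without a filter on dim probes, 443 with slide as a block, 0, 10 and 0 within slides 1, 2 and 3, and 1281 at an adjusted p below 0.10. Leaving out 1 array gave 520 to 706. The titles do not say what their numbers mean, and they were not used as a pairing. For the 4 shared numbers the deviations ran at r = 0.14, -0.18, 0.09 and 0.24, too few values to settle a pairing. A fit of those mice with the shared number as a replicate block called 34 probes in all, 0 of the 10 genes and 0 of the related lists.

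The count for the related lists, 1 as reported, was 0 with normexp, without a filter, within each slide and with slide as a block. It was 2 with limited background, with probes above background on all 12 arrays or on all arrays of a group, and with 1 probe or the mean of probes per gene, 3 with trend and robust variance or array weights, and 4 at an adjusted p below 0.10. Leaving out 1 array gave 0 to 1. Mrln was below 0 in all 32 settings. It was not called in 19, among them median scaling (adjusted p = 0.162 in limma). Sypl2 was called in 10 of the 32. The cause was not tested. In the normexp fit, spots with very high local background displaced the estimated background on 4 arrays. Dim probes of Pln and Ryr3 lie near background, which limits what their differences can show.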
